A study of Caenorhabditis elegans with 2 samples.

Results

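The data describe where MXL-2 was found on a stretch of chromosome II of Caenorhabditis elegans that carries the genes E01G4.3 and pqn-27. MXL-2 was profiled by chromatin immunoprecipitation and sequencing (ChIP-seq) in whole L4 larvae of strain RW12316, 48 h old, whose mxl-2 gene carries a TY1, EGFP and 3xFLAG tag inserted with CRISPR, and EGFP was the target of the antibody. Animals were synchronised as starved L1 larvae after bleaching. Both libraries are biological replicates of that 1 strain and stage, so every value comes from the tagged strain and whole animals, and no tissue can be told apart. Binding in an untagged strain was not analysed here. Members were chosen by position and by their measured signal. They are the regions with a summit in a stretch of 20000 bp of chromosome II (genome build ce11), picked because it holds a pair of regions near the top of the list. The stretch begins 7160 bp before the leftmost region's summit and ends 5597 bp after the rightmost one. After overlapping lines were joined, the authors' list for the whole experiment had 3 such regions of 968 in all. The list of each replicate had 2, of 448 in replicate 1 and of 454 in replicate 2. Rank and signal are therefore given as a description, with no test.

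MXL-2 is the worm's Mlx-like protein. It pairs with the Mondo-like protein MML-1 through a basic helix-loop-helix leucine zipper, and such pairs recognise the E-box, the palindrome CACGTG. In mammals the matching Mondo and Mlx proteins are known as sensors of glucose, and in C. elegans MML-1 and MXL-2 are known from work on lifespan.

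The gene that holds all 3 summits is E01G4.3 (WBGene00008446, II:13461082-13469602, minus strand), an 8521 bp gene that RefSeq calls an uncharacterized protein. Its annotation has 3 transcripts. The longest, E01G4.3c, starts at 13469602 and has a first intron of 6918 bp (13462661 to 13469578) and a second of 504 bp (13462070 to 13462573). A shorter one, E01G4.3a, starts at 13462045, and E01G4.3b starts at 13461637. Downstream on the same strand lies pqn-27 (WBGene00004116, II:13448835-13460642), one of the genes named for a prion-like domain rich in glutamine and asparagine. RefSeq also gives pqn-27 products a MIF4G domain, a domain known from translation initiation factors. The other genes that reach into the stretch are E01G4.5, which encodes a protein with a C2H2-type zinc finger domain (13472401 to 13473995, plus strand), and the microRNA gene mir-4929 (13461755 to 13461864, minus strand), inside E01G4.3.

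The strongest region lay in the first intron of E01G4.3 (II:13469233-13469545), with its summit at 13469403, 199 bp into the gene. The second in strength lay in the second intron (II:13462020-13462319), with its summit at 13462160. Among protein-coding genes its nearest gene start is that of pqn-27, 1518 bp away, and the region is named after pqn-27 on that measure. The start of the transcript E01G4.3a is nearer, with the summit 115 bp upstream of it. No whole-experiment region had its summit inside pqn-27, so by position both strong regions belong to E01G4.3, and the name pqn-27 rests on the starts of protein-coding genes alone. The third region lay between them in the first intron (II:13465409-13465668, summit 13465539), 3864 bp from the strongest summit and 3379 bp from the second-intron summit. The strong summits were 7243 bp apart.

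**Figure D1:**
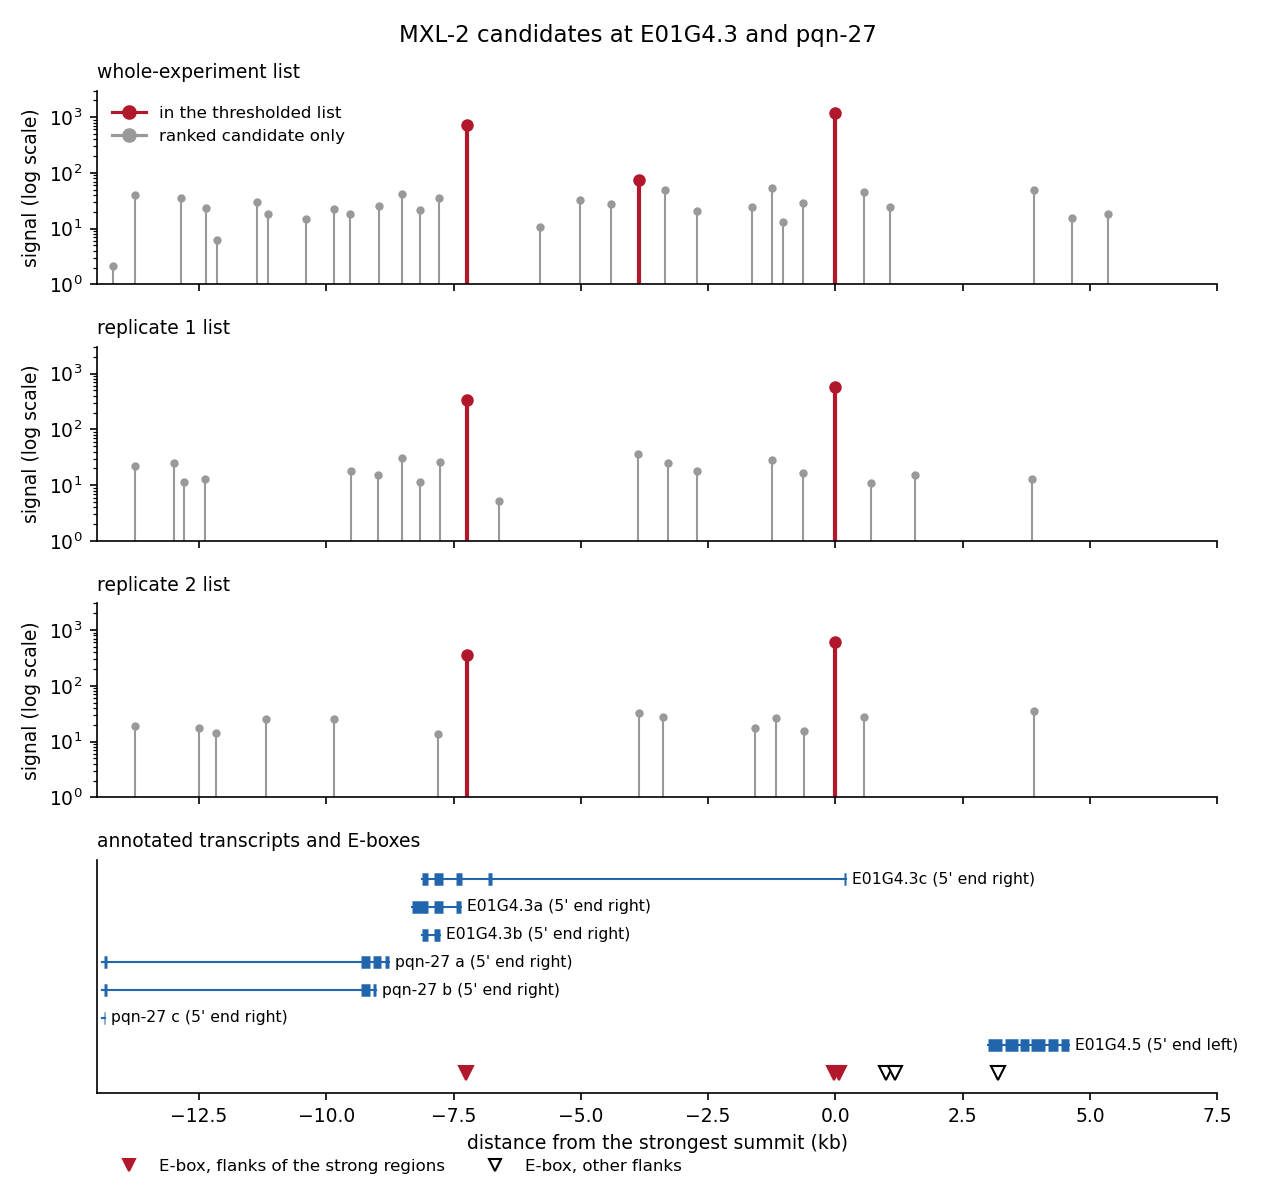
Signal (log scale) of every candidate in the stretch, by distance in kb from the strongest summit, in the whole-experiment, replicate 1 and replicate 2 lists, with the annotated transcripts (bars are exons, lines are introns, pqn-27 cut at the edge of the stretch) and the E-boxes below. Both strong regions stand at the same places in all 3 panels, at 0 and at 7243 bp to the left, and the middle region is in the thresholded list of the whole experiment only.

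The bases around the summits are shown first because the strong regions share a site. Below are the 101 bases centred on each whole-experiment summit, plus strand of ce11, read from the RefSeq WBcel235 assembly, with CACGTG in capitals.

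First-intron region (II:13469353-13469453): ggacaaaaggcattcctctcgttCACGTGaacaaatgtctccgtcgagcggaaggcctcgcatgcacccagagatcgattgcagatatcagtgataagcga
Second-intron region (II:13462110-13462210): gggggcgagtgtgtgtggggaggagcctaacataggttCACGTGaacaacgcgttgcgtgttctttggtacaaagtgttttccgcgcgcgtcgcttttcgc
Middle region (II:13465489-13465589): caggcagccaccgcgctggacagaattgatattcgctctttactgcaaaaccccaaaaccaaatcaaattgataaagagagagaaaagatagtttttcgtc

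Of the 3 regions, 2 had CACGTG within 50 bp of the summit, against 16.2% of all whole-experiment regions. Members were picked for strength, and 9 of the 11 other regions at least as strong as the second-intron region had the site too. Nothing is therefore read from that difference. The middle region had no CACGTG, and no hexamer of the wider form CANNTG either. Its GC content over the 101 bases was 41.6%, below the 51.5% of the first-intron region and the 56.4% of the second-intron region. Over all regions the median was 49% with quartiles of 43.6% and 54.5%.

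The longest stretch shared by the windows of the strong regions was 14 bases with the E-box near its middle: gttCACGTGaacaa. It lay at 13469373 to 13469386 in the first-intron region and at 13462145 to 13462158 in the second-intron region, on the same strand. These 14 bases occur 6 times in the genome, both strands counted, and none of the 4 copies outside the stretch lay in a whole-experiment region, a share for which the exact 95% upper limit is 60.2%. The first-intron region held a second E-box whose start was 92 bp from the first, with 86 bases between them. Its surroundings, at 13469458 to 13469483, are shown beside those of the other sites because the flanking bases recur.

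First-intron region, site nearer the summit (13469366 to 13469391): tcctctcgttCACGTGaacaaatgtc
First-intron region, site farther from the summit (13469458 to 13469483): tcacgtagttCACGTGaagggtctcc
Second-intron region (13462138 to 13462163): aacataggttCACGTGaacaacgcgt
Upstream of E01G4.3 (13470392 to 13470417): acaacagagtCACGTGgtgccaagct
Upstream of E01G4.3 (13470561 to 13470586): actctgacacCACGTGgagagtcagt
Coding exon 1 of E01G4.5 (13472583 to 13472608): cctgcacaacCACGTGgccaagcttt

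These 6 are all the E-boxes in the 20000 bp of the stretch, and the 3 inside strong regions read ttCACGTGaa, a palindrome of 10 bases, whereas the 3 outside any whole-experiment region read otherwise. The outside E-boxes at 13470402 and 13470571 were covered by 1 weak whole-experiment candidate of signal 24.9 and by no candidate of either replicate. The one in E01G4.5 was covered by no candidate of these 3 lists. In the whole-experiment list the E-box centres stood at 24.5 bp before and 67.5 bp after the first-intron summit, and at 9.5 bp before the second-intron summit. Relative to the replicates' own summits, the nearer first-intron site stood at 23.5 bp before in replicate 1 and 18.5 bp before in replicate 2, and the second-intron site at 18.5 and 13.5 bp before. In the 155 other regions with an E-box within 50 bp, the nearest centre lay at a median of 14.5 bp from the summit (quartiles 6.5 and 30.5 bp).

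**Figure D2:**
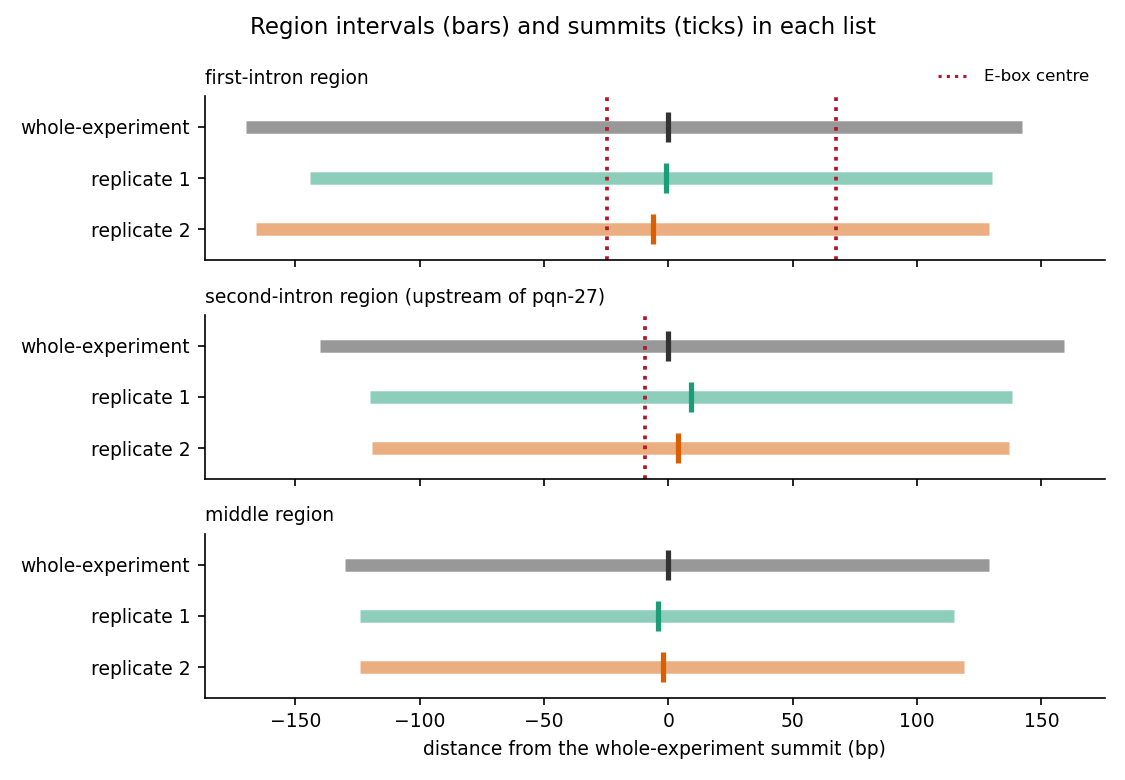
Interval (bar) and summit (tick) of each region in the whole-experiment, replicate 1 and replicate 2 lists, by distance in bp from the whole-experiment summit, with E-box centres as dotted lines. In the first-intron region the 3 summits fall between the E-boxes, nearer to the left one, in the second-intron region they fall just right of the single E-box, and in the middle region there is no E-box.

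The first-intron region had a signal of 572.7 in replicate 1 and 604.1 in replicate 2 (588 ± 22.2, SD, n = 2). The signal is the deposited value of a region on the authors' peak-caller scale. The labels do not say what it measures or whether the lists share a scale. The first-intron region ranked 7 among the regions of replicate 1 and 5 among those of replicate 2. The second-intron region had 333 in replicate 1 and 358 in replicate 2 (345 ± 17.7, SD, n = 2), and ranked 13 in both lists. In each replicate the first-intron region was the stronger, by 1.72-fold in replicate 1 and 1.69-fold in replicate 2 (mean 1.70 ± 0.0230, SD, n = 2). The values of the 2 regions did not overlap. Since the regions were put in order by whole-experiment signal, which is not independent of the replicates, nothing is read from that order.

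In the whole-experiment list the first-intron region had a signal of 1179 and rank 6, and the second-intron region 712 and rank 13. The median over all regions of that list was 82.1. Whole-experiment signals were close to the sum of the replicates' signals, at 1.00 times the sum in the first-intron region and 1.03 times in the second-intron region. Over all 289 regions in both replicates' lists that ratio had a median of 1.00 (quartiles 0.985 and 1.02). Whole-experiment signals were therefore not set against replicate signals as levels.

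Each replicate's ranked list also gives the signal in the 2 sets that the authors compared to make it, of which the labels say no more. For the first-intron region these were 297 and 275 in replicate 1, and 314 and 289 in replicate 2. For the second-intron region they were 159 and 176 in replicate 1, and 155 and 197 in replicate 2. The sets summed to close to their own replicate's signal. That was 0.998 times it in replicate 1 and 0.999 times in replicate 2 for the first-intron region, and 1.01 and 0.985 times for the second-intron region. They are therefore not counted as further replicates. Among the strong regions the widest fold between sets was 1.27, in the second-intron region of replicate 2. In the middle region it was 1.56 in replicate 1 and 1.10 in replicate 2.

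The middle region was far weaker, with 36.7 in replicate 1 and 33.0 in replicate 2 (34.8 ± 2.62, SD, n = 2). It ranked 915 of 56474 candidates in replicate 1 and 1470 of 51771 in replicate 2. Its irreproducible discovery rate (IDR), the estimated share of irreproducible candidates among those ranked as high, was 0.171 in replicate 1 and 0.124 in replicate 2, so neither thresholded list, which stops at 0.01, held it. In the whole-experiment list it had a signal of 75.5, rank 577 and an IDR of 0.00316. There 40.4% of the regions were weaker, and the first-intron region was 15.6-fold and the second-intron region 9.43-fold stronger. Both strong regions had an IDR of 1e-05, the lowest the lists give, in every list.

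Both replicates' lists held 2 of the 3 regions, against 29.9% of all whole-experiment regions. Since the members were picked for strength, nothing is read from that difference. Replicate 2 over replicate 1 was 1.05 for the first-intron region, 1.08 for the second-intron region and 0.899 for the middle region. The median over the 291 pairs in both lists was 1.02 (quartiles 0.873 and 1.19), and 26.8% of pairs differed by no more than the second-intron region did. The summits of the replicates lay 5 bp apart in both strong regions and 2 bp apart in the middle region, against a median of 12 bp over the pairs (quartiles 5 and 28 bp). For replicate ratio, the strong regions and the middle one lay within the quartiles of the pairs.

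**Figure D3:**
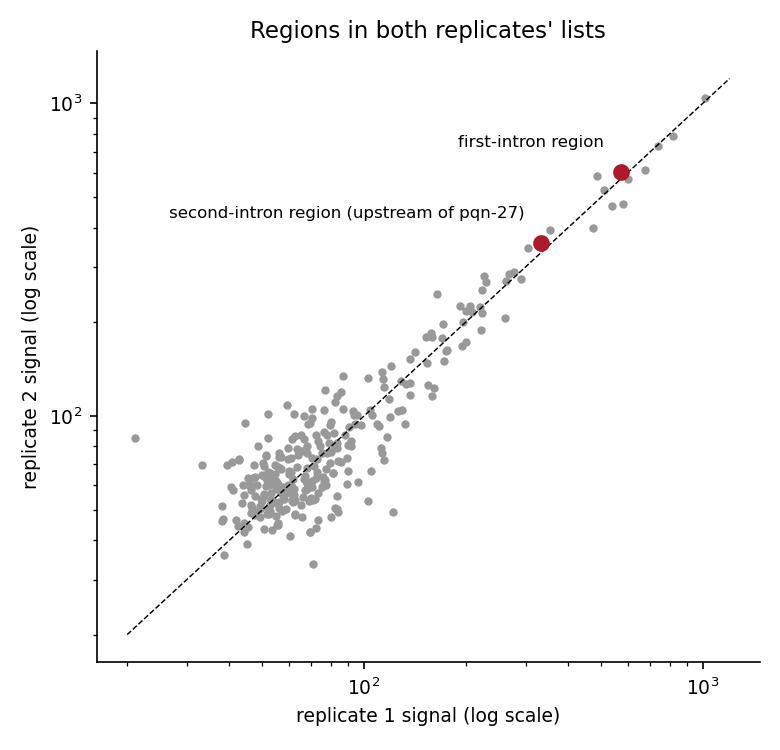
Signal in replicate 2 against replicate 1 (log scales) for the 291 pairs of regions in both replicates' lists, with the strong regions of E01G4.3 in red and equal signals as a dashed line. Both lie close to the line, at 573 and 604 and at 333 and 358.

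The rest of the stretch held weak candidates. In the whole-experiment list it had 31 candidates, 3 of them thresholded (9.68%, exact 95% interval 2.04 to 25.8), against 1.07% of all candidates. Replicate 1 had 20 candidates with 2 thresholded, against 0.8%, and replicate 2 had 15 with 2 thresholded, against 0.883%. The stretch was picked for thresholded regions, so these shares only describe it. Bins of 20000 bp held a median of 19 whole-experiment candidates (quartiles 15 and 23), 11 of replicate 1 (8 and 14) and 10 of replicate 2 (7 and 13).

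Weak candidates, meaning those outside a list's own thresholded regions, reached 53.2 in the whole experiment with a median of 24.7. They reached 36.7 in replicate 1 with a median of 17.3, and 35.9 in replicate 2 with a median of 24.9. In both replicates they include the middle region, which is the 36.7 of replicate 1. Apart from it, weak candidates of replicate 1 reached 31.0. Of the 18 in replicate 1, 9 overlapped a candidate of replicate 2, and of the 13 in replicate 2, 10 overlapped one of replicate 1. The matching share over all candidates is not given here, so nothing is read from these counts. In the part of pqn-27 inside the stretch there were 11 whole-experiment candidates. Of these, 10 were in its introns, with signals from 2.12 to 39.6, and 1 was in a coding exon, with 25.1. The rest of the gene lies beyond the stretch, and candidates there were not counted. No pqn-27 candidate was in the thresholded lists of these 3. Between pqn-27 and E01G4.3, a candidate at 13460894 had a signal of 41.4 and an IDR of 0.0360 in the whole experiment, and one at 13460893 had 31.0 in replicate 1. Replicate 2 listed none there.

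A candidate in a coding exon of E01G4.5 had a signal of 12.8 in replicate 1 and 35.9 in replicate 2. Its IDR was 0.937 in replicate 1, 0.864 in replicate 2 and 0.345 in the whole experiment, so no thresholded list of these 3 held it. The second-intron summit lay 296 bp upstream of the annotated start of mir-4929, nearer than the start of pqn-27 and farther than that of E01G4.3a. No candidate of the 3 lists had its summit in the microRNA gene. At the edges of the stretch, the whole-experiment candidates just inside had signals of 2.12 and 18.2, and those just outside 17.9 and 15.9. The nearest thresholded regions beyond it were weak and far away, with signals of 77.2 at 384199 bp from the second-intron summit and 64.4 at 209290 bp from the first-intron summit.

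Close pairs of strong regions were also found elsewhere, and how many to expect was not computed. Among the 20 strongest whole-experiment regions, 5 pairs lay within 20000 bp of each other. One was the pair in E01G4.3. On chromosome X, 3 pairs lay near mdl-1, the gene of the Mad-like member of the network, at 1796, 6245 and 8041 bp, and 1 pair near mxl-3, the gene of another Max-like protein, at 5105 bp. Within 10000 bp, mdl-1 had 12 regions and mxl-3 had 7, against the 3 at E01G4.3. The genes mml-1 and hlh-30, for the Mondo-like partner and a TFEB-like factor, had 1 region each (59.6 and 72.2), while mxl-1 and mxl-2 had none. Across the whole experiment the gap from a region to its nearest neighbour had a median of 18277 bp, and 354 of 968 regions had one within 7243 bp.

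With 3 summits, E01G4.3 was 1 of 12 protein-coding genes, of 19877, with at least that many whole-experiment summits in their span (0.0604%). Since the stretch was picked for its regions, nothing is read from that share. Both replicates' lists held 2 of the 3 regions of E01G4.3, and from 0 to 3 regions of the other genes. The summed signals of the 12 genes were 2186 for Y62E10A.13, 1966 for E01G4.3, 1695 for tre-2, 1643 for abts-4 and 1401 for Y43F8B.2, and the other 7 genes lay between 221 and 795. These genes range from 5345 bp (tos-1) to 33613 bp (pqn-41) in length. The genes other than E01G4.3 were named after their values were seen.

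The regions closest in signal to the first-intron region over the 2 replicates, of 287 compared, had as nearest genes F26A3.4 (601 and 573), mdl-1 (674 and 610) and T07E3.4 (487 and 585). Only the one at mdl-1 of these 3 had an E-box within 50 bp. Closest to the second-intron region were those at R07E3.4 (304 and 346), mxl-3 (355 and 393) and C49F8.15 (278 and 289), and all 3 had an E-box. Regions close in signal to the first-intron region were thus found both with and without the E-box. Of the 11 other regions at least as strong as the second-intron region, however, 9 had one within 50 bp.

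The bases that flank the E-box were then followed outside the stretch, a step chosen after the 3 sites had been read. Sites were grouped by 2 bases on each side, taking both strands as 1, which gave 136 classes. The members' own sites were left out, so this measure did not use them. Of 283 sites outside the stretch that read ttCACGTGaa, 30 had a whole-experiment summit within 50 bp (10.6%, exact 95% interval 7.27 to 14.8). Of the 17440 sites with other flanks, 140 did (0.803%, 0.676 to 0.947). The intervals do not overlap. Over all sites of the genome the share was 0.97%.

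The same held in each replicate's own list. In replicate 1, 22 of 283 such sites (7.77%, 4.94 to 11.5) had a summit, against 97 of 17440 others (0.556%, 0.451 to 0.678). In replicate 2 the counts were 23 of 283 (8.13%, 5.22 to 11.9) against 90 of 17440 (0.516%, 0.415 to 0.634). Among the 108 classes of at least 50 sites the share of ttCACGTGaa was the highest, with 7.81% for tgCACGTGaa next, whose interval of 3.81 to 13.9 overlaps it. Among smaller classes, cgCACGTGac had 3 of 28 (10.7%). The flanks of the 3 unoccupied E-boxes in the stretch had lower shares. Sites reading acCACGTGac, the opposite strand of the one at 13470402, had a summit in 4 of 171 cases outside it (2.34%, 0.641 to 5.88), acCACGTGga in 1 of 440 (0.227%, 0.00575 to 1.26) and acCACGTGgc in 0 of 368, for which the exact upper limit is 0.997%. Most ttCACGTGaa sites had no region all the same, and intervals cover counting error only.

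**Figure D4:**
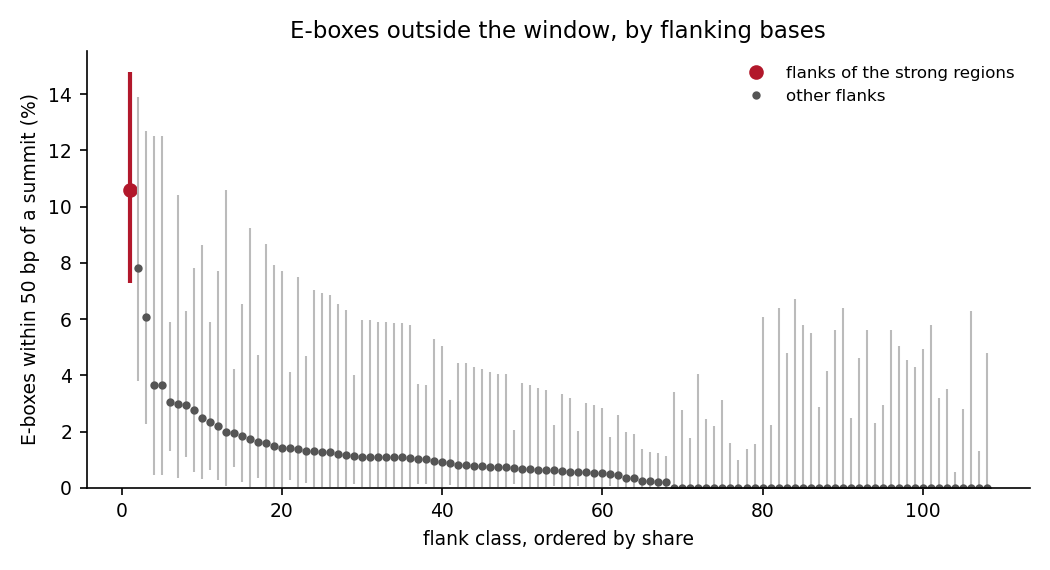
Share of E-boxes outside the stretch with a whole-experiment summit within 50 bp, for each of the 108 flank classes of at least 50 sites, ordered by share, with exact 95% binomial intervals as lines. The flanks found in the strong regions of E01G4.3, in red, have the highest share, 10.6%, and their interval overlaps those of the classes next in order.

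Regions outside the stretch with ttCACGTGaa within 50 bp of the summit numbered 29, and had a median whole-experiment signal of 131 (quartiles 95.9 and 311). The 126 regions with only other E-boxes there had a median of 105 (78.8 and 193), and the 810 with none had 79.1 (68.0 and 104). The strongest of the 29 lay 4314 bp into the trehalase gene tre-2 (signal 1468), followed by those nearest to CC8.2 (558), F44E7.3 (428) and the ATP citrate lyase gene acly-1 (415), which were named after their values were seen. The highest signal was 2040 among the 126 with other E-boxes and 1184 among the 810 with none. Both replicates' lists held 21 of the 29 (72.4%), against 61 of the 126 (48.4%) and 205 of the 810 (25.3%). These classes also differ in signal, and the shares were not compared at equal signal, so nothing about the flanks is read from them. None of the regions within 10000 bp of mdl-1 or mxl-3 had these flanks. Of the 11 other regions at least as strong as the second-intron region, 9 had an E-box within 50 bp and 1 had these flanks. Regions with at least 2 E-boxes in the interval, such as the first-intron region, numbered 31 of 968 (3.2%), and those with at least 2 reading ttCACGTGaa numbered 2, of which 1 is the first-intron region.

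Within 1000 bp of the start, 2 of 56 pqn genes were the nearest gene of a whole-experiment region (3.57%), against 1.98% of all protein-coding genes. These were pqn-71 (508 bp upstream, signal 138, in both replicates' lists) and pqn-51 (156 bp upstream, signal 70.6, in the replicate 1 list), and neither had an E-box within 50 bp. With its region at 1518 bp, pqn-27 was not among them. Nor was pqn-41, which had 4 whole-experiment summits in its span with a summed signal of 323. Of the 3 regions of the stretch, 1 lay within 1000 bp of the start of a protein-coding gene, the one in the first intron, against 42.6% of all regions. Counting from the starts of all transcripts of protein-coding genes, an alternative chosen after seeing the data, 2 did, since the second-intron region is then placed at E01G4.3a. Elsewhere 70 of the 554 regions away from those gene starts (12.6%) lay within 1000 bp of another transcript's start, and for 71 of 965 regions (7.36%) the nearest gene changed.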

How the data were processed

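The 8 deposited peak lists are on ce11, per the file headers. Candidates are in a ranked list and regions in a thresholded list, 1 of each for every replicate and 2 of each for the whole experiment, of which 1 pair is conservative. The deposited signal is a value per region on the peak caller's scale, which the labels do not explain, and a deposited −log10 column gives a q-value. The deposited score columns are the IDR, scaled and as −log10. Aligner and peak caller were not given in the sources used here. Files hold no read counts, so depth is unknown, and intervals (exact Clopper-Pearson, 95%) cover counting error over regions or sites only.

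Overlapping lines of the thresholded lists were joined, keeping the strongest summit. Before joining, the whole-experiment list that is not conservative had 983 lines, that of replicate 1 had 452 and that of replicate 2 had 457. Annotation was Ensembl release 115 and sequence RefSeq WBcel235, the assembly of ce11. Counts and intervals were computed with Python 3.11.15, numpy 2.4.6 and scipy 1.17.1, and helpers were tested on simulated data. The 2 libraries form 1 group, so no comparison between groups was tested, and the SD measures only the spread between these libraries. The named genes are those of the stretch, of the Myc-Max-Mondo network, of the regions closest in replicate signal, pqn genes with a promoter region and close pairs among the 20 strongest regions. Genes with at least 3 summits, and those nearest to the strongest regions with the same E-box flanks, were named after their values were seen. Gene starts are those of protein-coding genes. Members and lists were chosen with earlier results of these data known. Alternatives covered the list, IDR limit, overlap rule, distances and each replicate left out.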

Additional observations from a re-analysis of the deposited data

How the results depend on the processing

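Of 44 alternatives over 12 results, 37 left the value within 1.5 times the main count or within the spread of the replicates or the interval. The 7 others were these. Within 25 bp of the summit in place of 50 bp, 1 region had a whole E-box (the first-intron site is cut by the narrower window) and 1 E-box of the stretch lay near a summit. The fold of the first-intron over the second-intron region was 1.66 in the whole-experiment and conservative lists and 2.23 when list ranks (second-intron over first-intron) replaced signals. Within 500 bp, 1 pqn gene had a region. With transcript starts, chosen after seeing the data, 2 regions lay near a start. Leaving out either replicate kept 2 strong regions and a fold between 1.69 and 1.72. The middle region is missing at an IDR of 0.001 and from each replicate's list. With 2 replicates and unknown depth, the limits on weak candidates could not be measured. No paired analysis was possible because there is 1 group.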
